A study of Homo sapiens with 5 samples.

Results

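The DNA replication machinery was followed in 2 human pigment cell lines after silencing of BPTF, the largest subunit of the NURF chromatin-remodelling complex. The 49 genes are listed by name, as components that load, activate and drive the replication fork and supply its nucleotides. All 49 were found among the 31029 genes listed in the files of both lines. One group held 2 libraries of 501Mel, a melanoma line, and the other held 3 libraries of Hermes 3A, a line of untransformed melanocytes. Cells of both groups were infected with an shBPTF lentivirus, kept under puromycin at 3 µg/ml for 5 days and collected for RNA-seq. The study used more than one shBPTF vector, and the labels do not say which of them a library received. Both lines were grown in medium with serum, and that of Hermes 3A cells also held TPA, cholera toxin, stem cell factor and endothelin-1, so that cell line and medium cannot be told apart. No shControl library was analysed here. The values below therefore compare the 2 lines after BPTF silencing and give no effect of the silencing itself.

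Eukaryotic replication starts at origins marked by the origin recognition complex. There, CDC6 and CDT1 load the ring-shaped MCM helicase during G1, a step called licensing, and geminin, the product of GMNN, blocks CDT1 once S phase has begun. CDC45, the GINS complex and MCM10 turn the loaded ring into an active helicase, and the polymerases, the sliding clamp PCNA and its loader RFC then copy the unwound strands. Many of these genes are known targets of E2F transcription factors and are transcribed mainly in cycling cells.

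Total counts lay between 30073071 and 43032311 per library, so that 3 counts correspond to 0.0697 to 0.0998 CPM (the count of a gene scaled to a library total of 1000000). Hermes 3A replicate 1 stood apart from the other libraries of its line. Chi-square per gene was 94.7 and 99.7 against replicates 2 and 3, which differed from each other by 21.3. The targeted gene BPTF had 65.8 and 57.8 CPM in 501Mel cells and 45.8, 51.6 and 54.1 CPM in Hermes 3A cells, and without a control these levels do not measure its silencing. Of 7 melanocyte lineage markers, MITF, SOX10, PMEL, MLANA, TYR and TYRP1 were at 319 CPM or more in every library, but DCT, a pigment enzyme gene, had 1068 and 1300 CPM in 501Mel cells and only 7.37 to 13.1 CPM in Hermes 3A cells. Leukocyte markers summed to at most 1.53 CPM. The 4 keratinocyte markers found summed to 32.9 to 48.2 CPM, nearly all from KRT10 at 32.65 to 47.4 CPM, and KRT14, DSG3 and TP63 did not exceed 0.599 CPM. Among 6 fibroblast markers COL1A2 was at 69.5 to 187 CPM in Hermes 3A cells, and the other 5 did not exceed 8.34 CPM in any library. Counts in the 2 lines were made with different gene lists. The Hermes 3A files hold 1617 Ensembl identifiers above the highest one in the 501Mel files, so that the gene models behind a fold change may differ between the lines, and the part of this in the results was not tested.

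Transcripts of the replication machinery were more abundant in 501Mel than in Hermes 3A cells. With edgeR's quasi-likelihood test across 17975 genes, 46 of the 49 genes were called higher in 501Mel cells at a Benjamini-Hochberg adjusted p of 0.05, where 24.2% of all genes tested were called in this direction. None was called higher in Hermes 3A cells, against 24% of all genes, and DESeq2 called none in this direction either. All 49 fold changes were positive, so that 0 genes were lower in 501Mel cells at an unadjusted p under 0.05. A fold change of at least 2 together with the adjusted p was met by 44 genes in favour of 501Mel cells (17.2% of all genes tested) and by 0 in favour of Hermes 3A cells (17.1% of all genes tested). The median log2 fold change of the 49 genes was 2.08, with quartiles of 1.23 and 3.04, while the median of all genes tested was 0.02, with quartiles of -0.76 and 0.81. In 48 of the 49 genes both 501Mel libraries lay above all 3 Hermes 3A libraries, which was so for 37.9% of all genes tested. The exception was POLD2. In bulk RNA, fewer cycling cells and less of a transcript per cell cannot be told apart.

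**Figure D1:**
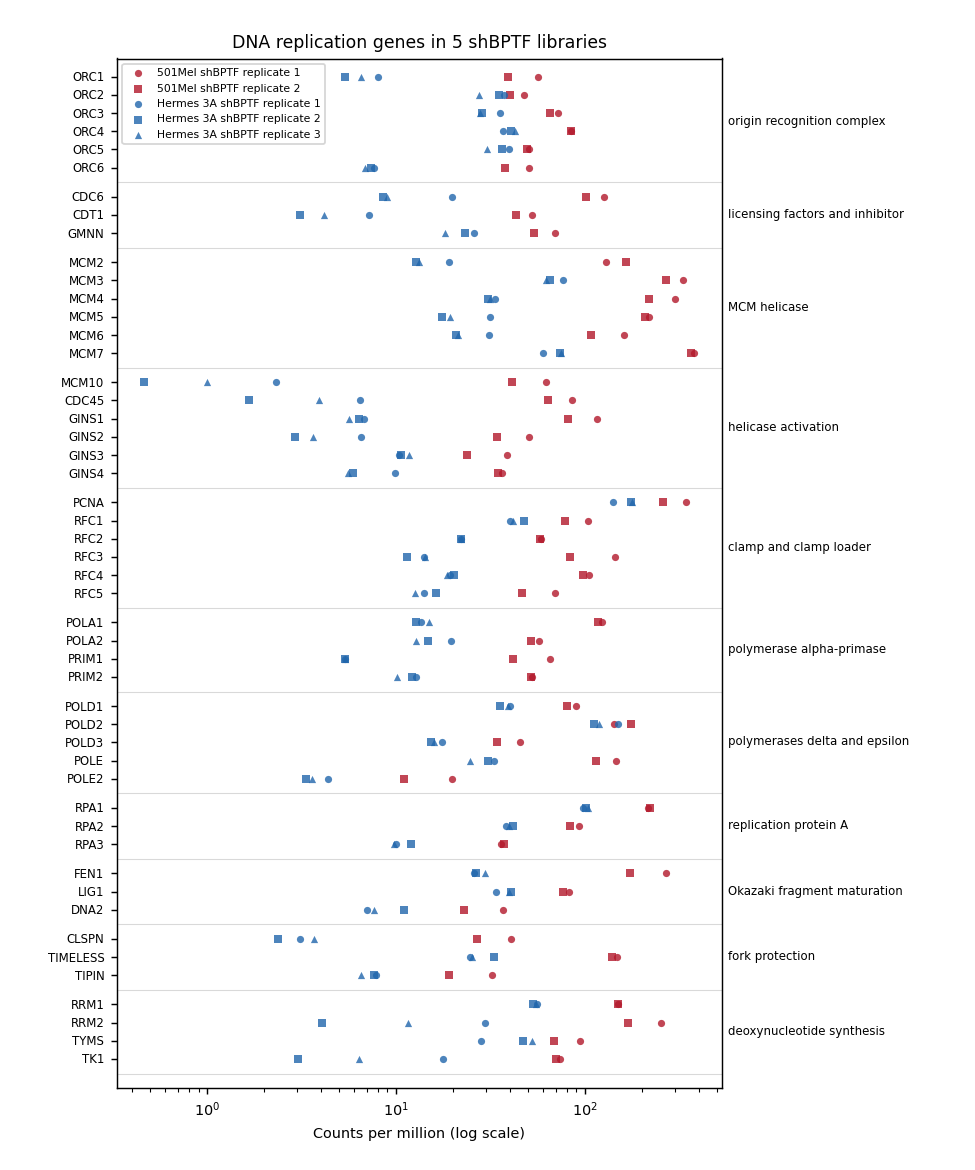
CPM on a log scale (x axis) of each of the 49 replication genes (y axis, grouped by role) in the 2 501Mel (red) and 3 Hermes 3A (blue) shBPTF libraries, with 1 point per library and a marker shape per replicate number. The red points lie to the right of the blue ones for 48 genes, and those of POLD2 overlap.

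Together the 49 genes took 5606 and 4689 CPM of the 501Mel libraries and 1435, 1354 and 1348 CPM of the Hermes 3A libraries. Markers of proliferating cells outside this machinery differed in the same direction. All 10 of 10 (MKI67, CCNB1, CCNB2, CDK1, AURKB, PLK1, BUB1, TPX2, CENPF and KIF11) were called higher in 501Mel cells. Of all genes tested, 24.2% were called in this direction. The markers had a median log2 fold change of 3.29 and a summed level of 1445 to 1819 CPM against 84.5 to 297 CPM in Hermes 3A cells. The part of these markers in the results on the replication genes was not tested.

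**Figure D2:**
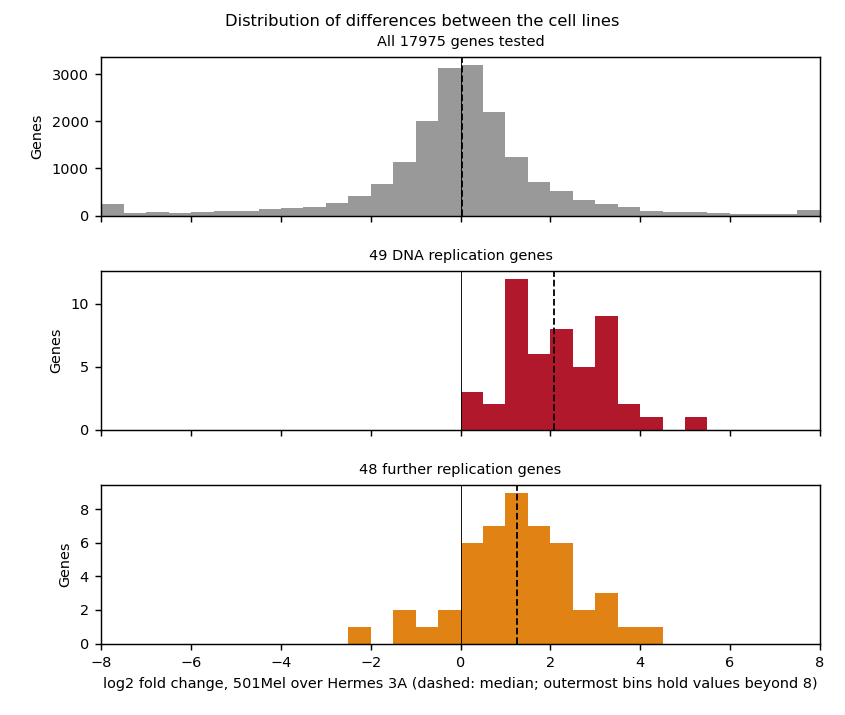
Number of genes (y axis) by log2 fold change of 501Mel over Hermes 3A cells (x axis) for all 17975 genes tested, the 49 replication genes and 48 further replication genes, with the median of each as a dashed line. The median lies at 0.02 for all genes, at 2.08 for the 49 genes and at 1.26 for the further genes.

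RefSeq promoter windows on GRCh38.p14, from 250 bases before to 50 bases after the gene start, were found for 42 of the 49 genes. They are shown here because the genes differed between the lines in the same direction. E2F motifs were searched on both strands as TTTCGCGC, TTTGGCGC, TTTCCCGC or TTTGCCGC, and matches on opposite strands may overlap. Such a match was present in 19 of the 42 windows (45.2%), against 3.33% of 27305 windows of the same length. The latter were neither limited to expressed genes nor matched for base composition. The CCAAT box, searched as CCAAT on both strands, was in 25 windows (59.5%, against 35.7%). The E-box core CACGTG, which MITF can bind, was in 6 (14.3%, against 7.43%), and the TTTGAA or TTCGAA of the cell cycle homology region was in 2 (4.76%, against 16.6%). Genes with an E2F match had a median log2 fold change of 2.36 (n = 19, from 0.81 to 3.91) and genes without one a median of 1.96 (n = 23, from 0.26 to 5.26), so that both ranges overlapped widely. These matches describe the letters only, and no binding was measured.

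Upstream stretches with an E2F match are given for 4 genes, in lower case with E2F and CCAAT matches in capitals (a CCAAT match on the other strand reads ATTGG). MCM6 is shown as the member with the most E2F matches, 4 in 2 overlapping pairs (chr2:135876504-135876603, minus strand). MCM7 (chr7:100101398-100101477, minus strand) is another subunit of the MCM ring, and RFC3 (chr13:33818069-33818148, plus strand) and POLA1 (chrX:24693768-24693867, plus strand) belong to the clamp loader and to polymerase alpha.
MCM6: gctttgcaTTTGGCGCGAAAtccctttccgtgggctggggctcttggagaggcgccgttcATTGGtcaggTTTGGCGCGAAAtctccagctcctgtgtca
MCM7: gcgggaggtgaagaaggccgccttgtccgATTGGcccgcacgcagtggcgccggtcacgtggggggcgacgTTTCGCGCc
RFC3: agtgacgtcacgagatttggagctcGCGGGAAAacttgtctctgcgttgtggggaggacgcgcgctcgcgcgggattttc
POLA1: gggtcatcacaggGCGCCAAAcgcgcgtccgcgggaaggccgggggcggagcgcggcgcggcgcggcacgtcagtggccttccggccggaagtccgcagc

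MCM10 and CDC45, the members with the largest differences, had no match to these E2F letters in their windows, and neither had RRM2. Looser forms of the motif, such as those that differ in the last letter, were not searched. GINS1, whose difference lay between those of CDC45 and RRM2, held 1. MCM10 (chr10:13161408-13161557), CDC45 (chr22:19479770-19479919) and RRM2 (chr2:10122589-10122738), all on the plus strand, held 2, 4 and 3 CCAAT matches in the 150 bases before the start. ORC5 (chr7:104208014-104208113, minus strand), which was not called, held neither motif, whereas the other members not called, POLD2 and ORC2, held 2 and 1 CCAAT matches and no E2F match. Neither motif was in the windows of FEN1, TK1, RFC4, PRIM2, GMNN, RFC2, POLD1 and ORC4, all called. PCNA, with a log2 fold change of 0.81, held 1 E2F and 3 CCAAT matches. Genes with a CCAAT match had a median log2 fold change of 2.36 (n = 25, from 0.26 to 5.26). Those without one had a median of 1.73 (n = 17, from 0.43 to 3.23), and the ranges overlapped widely.
MCM10: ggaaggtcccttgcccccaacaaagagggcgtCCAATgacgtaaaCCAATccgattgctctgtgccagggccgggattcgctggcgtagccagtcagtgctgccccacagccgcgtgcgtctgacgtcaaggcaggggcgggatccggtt
CDC45: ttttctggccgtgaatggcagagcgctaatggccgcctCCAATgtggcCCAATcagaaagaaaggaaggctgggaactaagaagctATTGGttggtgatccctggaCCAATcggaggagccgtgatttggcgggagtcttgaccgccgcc
RRM2: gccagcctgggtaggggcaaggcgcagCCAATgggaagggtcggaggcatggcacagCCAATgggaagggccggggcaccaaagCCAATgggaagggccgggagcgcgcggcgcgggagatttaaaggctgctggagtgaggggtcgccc
ORC5: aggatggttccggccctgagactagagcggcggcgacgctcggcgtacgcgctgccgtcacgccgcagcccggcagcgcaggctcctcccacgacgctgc

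Within the origin recognition complex the subunits differed in how far the lines were apart. ORC1 and ORC6 were several-fold higher in 501Mel cells, whereas ORC2 and ORC5 did not pass the test. Libraries are given here and below in the order of their replicate numbers. ORC1 (ENSG00000085840), the ATPase subunit that is known to vary over the cell cycle, had 56.1 and 39.0 CPM in 501Mel cells and 8.02, 5.36 and 6.55 CPM in Hermes 3A cells (log2 fold change 2.77, SE 0.26, adjusted p = 0.000278). ORC6, the smallest subunit, had 50.6 and 37.9 CPM against 7.66, 7.37 and 6.82 CPM (log2 fold change 2.54, SE 0.20, adjusted p = 0.000134). The subunits of the stable core were closer together. ORC3 had 72.4 and 65.0 CPM in 501Mel cells and 35.4, 28.5 and 27.9 CPM in Hermes 3A cells (log2 fold change 1.10, SE 0.18, adjusted p = 0.00248). ORC4 had 84.6 and 84.2 CPM against 36.7, 40.8 and 42.4 CPM (log2 fold change 1.02, SE 0.13, adjusted p = 0.000918). For ORC2 and ORC5 the groups were nearly adjacent. ORC2 had 47.4 and 39.9 CPM against 37.2, 35 and 27.5 CPM, with a log2 fold change of 0.33 (SE 0.19, adjusted p = 0.195). ORC5 had 50.8 and 49.1 CPM against 39.6, 36.3 and 30.3 CPM, with a log2 fold change of 0.43 (SE 0.17, adjusted p = 0.0773). ORC5 passed without Hermes 3A replicate 1 (log2 fold change 0.53, adjusted p = 0.022). The ratio of ORC1 to ORC2 counts was 1.18 and 0.977 in the 501Mel libraries, against 0.216, 0.153 and 0.238 for Hermes 3A.

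All 3 licensing genes were higher in 501Mel cells, the loaders more so than their inhibitor. CDT1 (ENSG00000167513), which brings the MCM ring to the origin, had 52.7 and 43.4 CPM in 501Mel cells and 7.23, 3.08 and 4.16 CPM in Hermes 3A cells (log2 fold change 3.23, SE 0.37, adjusted p = 0.000621). CDC6, the ATPase that works with it, had 126 and 101 CPM against 19.9, 8.56 and 8.94 CPM (log2 fold change 3.10, SE 0.40, adjusted p = 0.000922). GMNN, which encodes the CDT1 inhibitor geminin, had 69.3 and 53.5 CPM against 25.8, 23.1 and 18.2 CPM (log2 fold change 1.39, SE 0.21, adjusted p = 0.00182). The ratio of CDT1 to GMNN counts was 0.761 and 0.811 in the 501Mel libraries, against 0.280, 0.134 and 0.228 for Hermes 3A, without overlap.

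The MCM helicase genes were all called, with log2 fold changes between 2.07 and 3.21. MCM2 (ENSG00000073111) had 129 and 164 CPM in 501Mel cells and 19.1, 12.8 and 13.2 CPM in Hermes 3A cells, the largest difference of the ring (log2 fold change 3.21, SE 0.24, adjusted p = 0.000119). MCM5 had 219 and 208 CPM against 31.3, 17.5 and 19.3 CPM (log2 fold change 3.16, SE 0.28, adjusted p = 0.000212). MCM4 had 299 and 219 CPM against 33.3, 30.5 and 31.4 CPM (log2 fold change 2.96, SE 0.17, adjusted p = 4.27e-05). These subunits were thus between 7.79-fold and 9.26-fold higher in the melanoma line. MCM6 had 162 and 108 CPM in 501Mel cells and 31.1, 20.8 and 21.4 CPM in Hermes 3A cells (log2 fold change 2.39, SE 0.26, adjusted p = 0.000468). MCM7 had 379 and 367 CPM against 59.9, 73.6 and 74.8 CPM (log2 fold change 2.36, SE 0.14, adjusted p = 4.47e-05). The annotated exons of MCM7 overlap those of AP4M1 on the other strand over 8.9% of their length, and reads there may have been counted for either gene. MCM3 had the smallest difference of the ring, with 330 and 268 CPM against 76.3, 65.1 and 61.9 CPM (log2 fold change 2.07, SE 0.17, adjusted p = 0.000153).

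Genes that activate the helicase showed the largest differences of the machinery. MCM10 (ENSG00000065328), which is required for origin firing, had 62.2 and 41.1 CPM in 501Mel cells and 2.30, 0.465 and 0.998 CPM in Hermes 3A cells, with 96, 19 and 30 counts in the latter (log2 fold change 5.26, SE 0.60, adjusted p = 0.000587). CDC45, the partner of MCM and GINS in the active helicase, had 85 and 64.2 CPM against 6.43, 1.66 and 3.92 CPM (log2 fold change 4.13, SE 0.51, adjusted p = 0.000818). On the linear scale these were differences of 38.4-fold and 17.5-fold. Without Hermes 3A replicate 1, which had the highest level of its line for both genes, the log2 fold change was 6.12 for MCM10 and 4.70 for CDC45. GINS1 had 116 and 81.7 CPM in 501Mel cells and 6.79, 6.36 and 5.62 CPM in Hermes 3A cells (log2 fold change 3.91, SE 0.21, adjusted p = 3.17e-05). GINS2 had 50.4 and 34.3 CPM against 6.55, 2.91 and 3.62 CPM (log2 fold change 3.19, SE 0.39, adjusted p = 0.000774). The other subunits of this complex were less far apart. GINS4 had 36.2 and 34.6 CPM against 9.89, 5.92 and 5.59 CPM (log2 fold change 2.23, SE 0.30, adjusted p = 0.00115). GINS3 had 38.8 and 23.7 CPM against 10.4, 10.6 and 11.7 CPM (log2 fold change 1.45, SE 0.24, adjusted p = 0.00265).

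**Figure D3:**
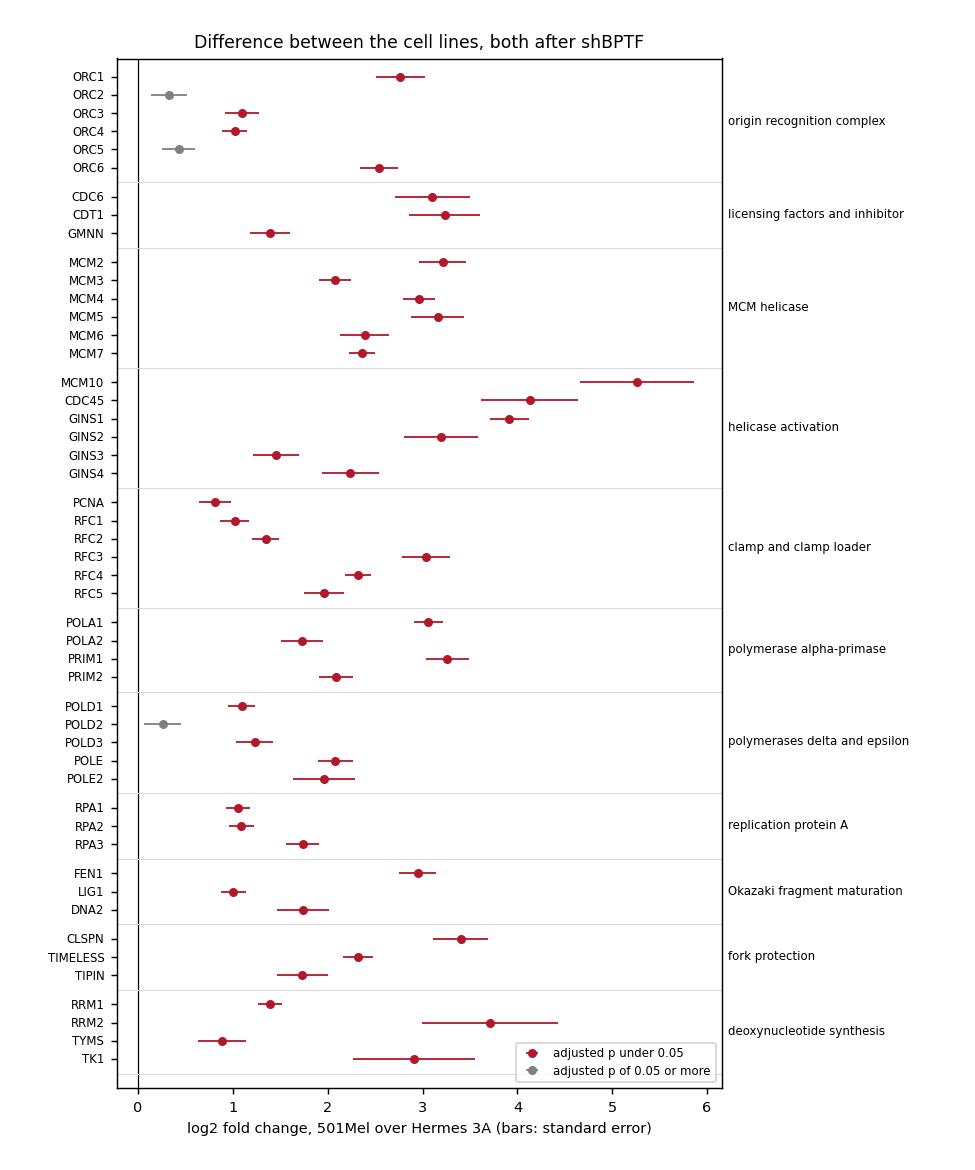
Log2 fold change of 501Mel over Hermes 3A shBPTF cells (x axis) for each of the 49 replication genes (y axis, grouped by role), with the standard error as bars and genes under an adjusted p of 0.05 in red. The values run from 0.26 for POLD2 to 5.26 for MCM10, and ORC2, ORC5 and POLD2 are not called.

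PCNA, the sliding clamp that holds polymerases on DNA, was among the members with the smallest differences, and its loader RFC was spread over a wide range. PCNA (ENSG00000132646) had 343 and 259 CPM in 501Mel cells and 141, 176 and 177 CPM in Hermes 3A cells, with a log2 fold change of 0.81 (SE 0.17, adjusted p = 0.00646). RFC3 had 145 and 83.3 CPM against 14.0, 11.4 and 14.2 CPM (log2 fold change 3.04, SE 0.25, adjusted p = 0.000163). RFC4 had 105 and 97.7 CPM against 19.3, 20.4 and 18.6 CPM (log2 fold change 2.32, SE 0.13, adjusted p = 4.38e-05). Both are small subunits of the loader, as are RFC2 and RFC5, whereas RFC1 is its large subunit. RFC5 had 69.6 and 46.7 CPM against 14.0, 16.3 and 12.6 CPM (log2 fold change 1.96, SE 0.21, adjusted p = 0.000452), with 5.7% of its exon length shared with WSB2 on the other strand. RFC2 had 58.7 and 58.1 CPM against 22, 22 and 21.9 CPM (log2 fold change 1.35, SE 0.14, adjusted p = 0.00042). RFC1 had 103 and 78.7 CPM against 40.0, 47.7 and 41.6 CPM (log2 fold change 1.02, SE 0.16, adjusted p = 0.00195). The loader genes thus ran from 2.02-fold to 8.22-fold higher in 501Mel cells.

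The genes of DNA polymerase alpha-primase, which lays down the RNA-DNA primers of every new strand, were all called. POLA1 (ENSG00000101868), the catalytic subunit, had 123 and 117 CPM in 501Mel cells and 13.6, 12.7 and 14.9 CPM in Hermes 3A cells, and had the smallest adjusted p of the 49 genes (log2 fold change 3.06, SE 0.15, adjusted p = 2.35e-05). PRIM1, the catalytic primase subunit, had 65.6 and 41.8 CPM against 5.35, 5.33 and 5.35 CPM (log2 fold change 3.26, SE 0.23, adjusted p = 8.16e-05). Their partners had smaller differences. PRIM2, the large primase subunit, had 52.4 and 51.6 CPM against 12.7, 12.2 and 10.2 CPM (log2 fold change 2.09, SE 0.18, adjusted p = 0.000181). POLA2, the regulatory subunit, had 57.4 and 52.0 CPM against 19.5, 14.8 and 12.8 CPM (log2 fold change 1.73, SE 0.22, adjusted p = 0.00098).

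Polymerase delta copies mainly the lagging strand and polymerase epsilon the leading strand. The 5 subunit genes described here leave out POLD4, POLE3 and POLE4, which were among the further genes and had log2 fold changes of -2.03, 1.70 and -1.11. POLD2 (ENSG00000106628), an accessory subunit of polymerase delta, was the member with the smallest difference, at 143 and 176 CPM in 501Mel cells and 149, 112 and 119 CPM in Hermes 3A cells (log2 fold change 0.26, SE 0.20, adjusted p = 0.30). POLD1, the catalytic subunit, had 89.5 and 80.8 CPM against 40.0, 35.4 and 39.2 CPM (log2 fold change 1.09, SE 0.15, adjusted p = 0.00111). POLD3 had 45.5 and 34.4 CPM against 17.5, 15.4 and 15.9 CPM (log2 fold change 1.23, SE 0.19, adjusted p = 0.00216). POLE, the catalytic subunit of polymerase epsilon, had 146 and 115 CPM in 501Mel cells and 33.1, 30.6 and 24.6 CPM in Hermes 3A cells (log2 fold change 2.08, SE 0.19, adjusted p = 0.000218). POLE2 had 19.8 and 11.0 CPM against 4.35, 3.33 and 3.59 CPM (log2 fold change 1.96, SE 0.33, adjusted p = 0.00282). Among these 5 genes, POLD2 thus lay below POLD1 and POLD3, whereas POLE and POLE2 differed by less than their standard errors. Of the further genes, POLD4 and POLE4 had the opposite sign.

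RPA, the complex that coats single-stranded DNA, was about 2-fold higher in 501Mel cells for its larger subunits. RPA1 had 215 and 221 CPM in 501Mel cells and 97.2, 101 and 103 CPM in Hermes 3A cells (log2 fold change 1.05, SE 0.12, adjusted p = 0.00063). RPA2 had 93.0 and 83.3 CPM against 38.1, 41.4 and 39.5 CPM (log2 fold change 1.09, SE 0.13, adjusted p = 0.000665). RPA3, the smallest subunit, had 36.1 and 37.5 CPM against 10.0, 12 and 9.78 CPM (log2 fold change 1.73, SE 0.18, adjusted p = 0.000364). Replicates of RPA1 differed by at most 1.06-fold in either line.

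Okazaki fragments are trimmed by the nucleases FEN1 and DNA2 and joined by ligase 1, the product of LIG1. FEN1 (ENSG00000168496) had 268 and 174 CPM in 501Mel cells and 26.0, 26.4 and 29.7 CPM in Hermes 3A cells (log2 fold change 2.95, SE 0.20, adjusted p = 7.25e-05), with 6.7% of its exon length shared with TMEM258 on the other strand. DNA2 had 36.6 and 22.8 CPM against 6.99, 11.0 and 7.68 CPM (log2 fold change 1.74, SE 0.28, adjusted p = 0.00231). LIG1 had 82.2 and 76.7 CPM against 34.0, 40.6 and 39.5 CPM (log2 fold change 1.00, SE 0.13, adjusted p = 0.0011). Among the fork protection genes, CLSPN, which encodes the checkpoint mediator claspin, had 40.5 and 26.9 CPM against 3.10, 2.37 and 3.66 CPM (log2 fold change 3.40, SE 0.29, adjusted p = 0.000179). TIMELESS and TIPIN form a pair that travels with the fork. TIMELESS had 148 and 140 CPM in 501Mel cells and 24.6, 33.2 and 25.3 CPM in Hermes 3A cells (log2 fold change 2.32, SE 0.15, adjusted p = 7.17e-05). TIPIN had 32.0 and 19.1 CPM against 7.85, 7.61 and 6.55 CPM (log2 fold change 1.73, SE 0.27, adjusted p = 0.00195).

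Deoxynucleotide synthesis held both large and small differences. RRM2 (ENSG00000171848), the small subunit of ribonucleotide reductase that is known to be made in S phase, had 254 and 169 CPM in 501Mel cells and 29.7, 4.04 and 11.5 CPM in Hermes 3A cells (log2 fold change 3.71, SE 0.72, adjusted p = 0.00511). RRM1, the large subunit, had 151 and 149 CPM against 55.4, 52.9 and 55.1 CPM (log2 fold change 1.39, SE 0.13, adjusted p = 0.000238). The ratio of RRM2 to RRM1 counts was 1.69 and 1.14 in 501Mel cells, but 0.536, 0.0764 and 0.209 for Hermes 3A. TK1, the cytosolic thymidine kinase, had 74.1 and 70.7 CPM in 501Mel cells and 17.7, 3.01 and 6.35 CPM in Hermes 3A cells (log2 fold change 2.91, SE 0.64, adjusted p = 0.0089). TYMS, which encodes thymidylate synthase, had 94.5 and 68.2 CPM against 28.2, 46.7 and 52.3 CPM (log2 fold change 0.88, SE 0.26, adjusted p = 0.0248). TYMS lost its call without 501Mel replicate 1 (adjusted p = 0.156) or without Hermes 3A replicate 2 (adjusted p = 0.0542), where its log2 fold change was 0.65 and 0.89, and 39.1% of its exon length overlaps ENOSF1 on the other strand.

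The Hermes 3A libraries differed among themselves for part of the machinery. Shares of all genes tested are given beside these counts, but those genes were not matched in level. They include genes with few counts, where counting noise alone widens the ratio, so that the shares do not rank the machinery as steadier or less steady. In 7 genes the highest of the 3 libraries was more than 2-fold above the lowest (14.3% of the 49 genes, against 27.3% of all genes tested). They were RRM2 (7.36-fold), TK1 (5.87-fold), MCM10 (4.96-fold), CDC45 (3.87-fold), CDT1 (2.34-fold), CDC6 (2.32-fold) and GINS2 (2.25-fold), and each was highest in replicate 1 and lowest in replicate 2. TYMS ran the other way, with its lowest level in replicate 1. The order of those 7 genes held for the 10 proliferation markers, all highest in replicate 1 and lowest in replicate 2, for example MKI67 with 34.3, 5.92 and 24 CPM. How many of all genes tested had this order was not counted, and replicate 1 stood apart from the other libraries over all genes. RFC2, PRIM1 and RRM1, in contrast to those 7 genes, stayed within 1.05-fold among the 3 libraries. Without Hermes 3A replicate 1 the log2 fold changes rose to 4.72 for RRM2 and 3.90 for TK1, differences from the values with all libraries of more than 1.5-fold on the linear scale, as for MCM10, and 47 of the 49 genes were then called. No replication gene differed by more than 2-fold between the 501Mel libraries, against 13.2% of all genes tested, again not matched in level. Replicate 1 of this line was the higher for 45 of the 49 genes, and the share over all genes was not counted.

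**Figure D4:**
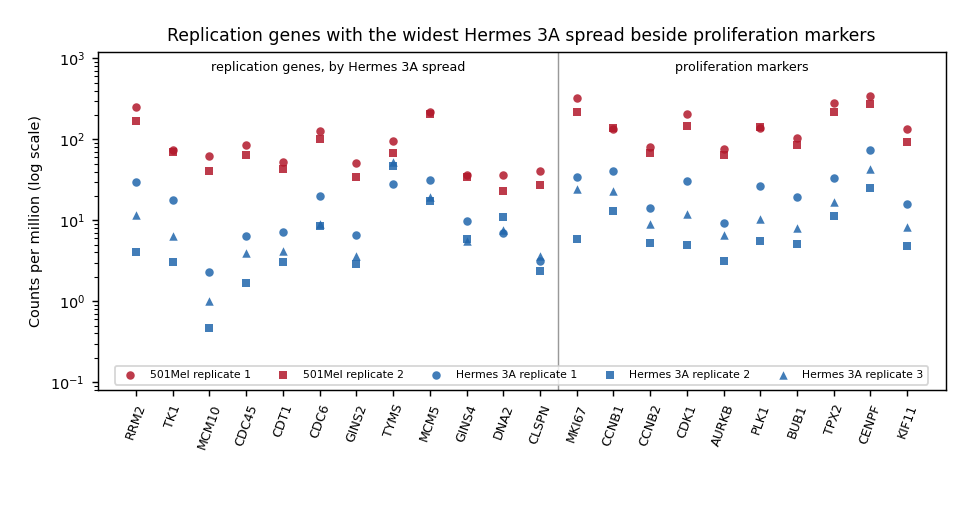
CPM on a log scale (y axis) in each of the 5 libraries for the 12 replication genes with the widest ratio between Hermes 3A libraries (left) and 10 proliferation markers (right). Hermes 3A replicate 1 (blue circles) is the highest of its line and replicate 2 (blue squares) the lowest for all 10 markers and for the first 7 genes from the left.

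Levels of different genes were compared per kb of annotated exon. PCNA had the highest level of the 49 genes in both lines, at 205 ± 40.8 CPM per kb in 501Mel cells (SD, n = 2) and 112 ± 14.0 CPM per kb in Hermes 3A cells (SD, n = 3). It was followed in 501Mel cells by FEN1 (89.2 ± 26.7), MCM7 (85 ± 1.89) and MCM3 (82.0 ± 12), whose libraries overlapped. In Hermes 3A cells POLD2 (34.3 ± 5.31) and RPA2 (19.6 ± 0.833) came next, each apart from the gene above it. The lowest levels were those of POLE2 in 501Mel cells (5.20 ± 2.10 CPM per kb) and of MCM10 in Hermes 3A cells (0.230 ± 0.174 CPM per kb), so that the machinery spanned 39.4-fold in the melanoma line and 486-fold in the melanocytes. The span in Hermes 3A cells rested on MCM10 as its lowest gene, with 96, 19 and 30 counts, and CLSPN came next at 0.562 ± 0.119 CPM per kb. Without Hermes 3A replicate 1 this span was 895-fold. Most neighbours in these orders could not be separated. Only 5 of the 48 neighbouring pairs in 501Mel cells and 9 of 48 in Hermes 3A cells had libraries that did not overlap. The order also depended on the length used. With the median transcript length in place of the exon length, MCM5 was the highest in 501Mel cells and POLD2 in Hermes 3A cells, and the rank correlation between both orders across the 49 genes was 0.70 and 0.80.

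**Figure D5:**
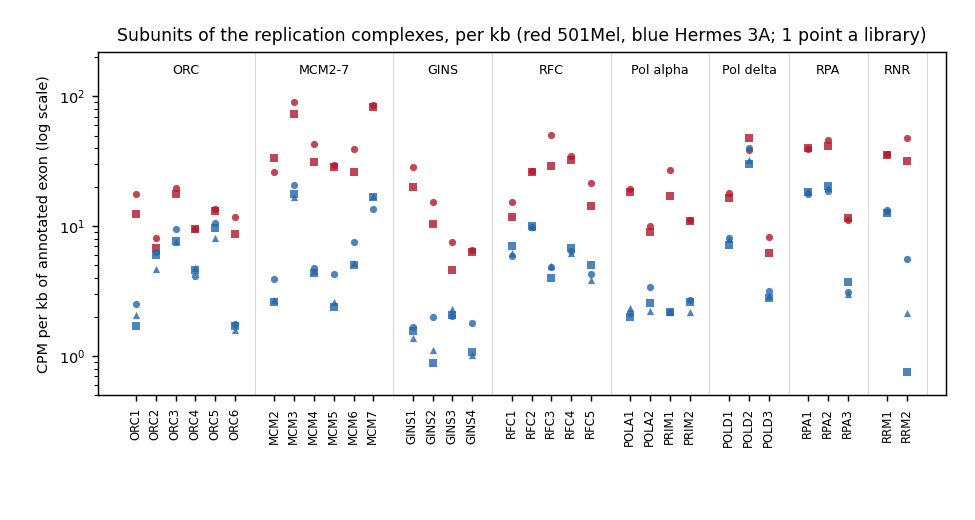
CPM per kb of annotated exon on a log scale (y axis) for the subunits of 8 replication complexes (x axis), with 1 point per library, red for 501Mel and blue for Hermes 3A cells. The red points of RRM1 and RRM2 lie at similar heights, whereas the blue points of RRM2 lie below those of RRM1 in all 3 libraries.

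Further replication genes outside the 49 were taken from a list of 49 names, of which 48 were found by identifier in the files. This list was chosen with earlier results of these data known and is no independent check on the members. Of these, 36 were called higher in 501Mel cells and 4 higher in Hermes 3A cells (against 24.2% and 24% of all genes tested), with a median log2 fold change of 1.26. For origin firing and licensing factors the counts were 12 and 0 of 14, for clamp loading, polymerase accessory and topoisomerase genes 10 and 2 of 14, for replication-coupled chromatin assembly 8 and 0 of 9, and for deoxynucleotide supply 6 and 2 of 11. The list was led by TOP2A, the topoisomerase that untangles sister chromatids, with 282 and 170 CPM in 501Mel cells and 13.9, 3.43 and 10.9 CPM in Hermes 3A cells (log2 fold change 4.50, SE 0.56, adjusted p = 0.000828). ASF1B, a histone chaperone, followed with 63.9 and 56.2 CPM against 6.79, 2.03 and 3.13 CPM (log2 fold change 3.82, SE 0.49, adjusted p = 0.000902). DSCC1, a subunit of an alternative clamp loader, had 42.8 and 28.8 CPM against 3.22, 3.08 and 3.09 CPM (log2 fold change 3.45, SE 0.24, adjusted p = 7.96e-05). Next in size were DTL (3.17), which targets CDT1 for destruction, TICRR (3.10), which recruits CDC45, ATAD5 (2.84), which unloads PCNA, MCM8 (2.72) and the histone chaperone gene NASP (2.48), all called. The 8 genes that were not called had log2 fold changes between -0.19 and 0.38.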

How the data were processed

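RNA-seq of 5 shBPTF libraries was analysed, 2 of 501Mel and 3 of Hermes 3A cells, grouped by the cell line and replicate number in their titles. The authors deposited raw read counts per Ensembl gene, without normalization. The submitters' processing notes name CASAVA 1.8, TopHat 1.4.1, Bowtie 0.12.7 and hg19, and the counting program, its strand setting and the annotation release are not given in the sources used here. RNA was depleted of ribosomal RNA and libraries were treated with a duplex-specific nuclease, which lowers abundant sequences, so that levels may be compressed. At these depths 3 counts give at most 0.0998 CPM, which covers counting error only. No pair of replicates agreed within counting noise, and nothing says that replicates came from separate cultures, so that p-values measure the spread between these libraries.

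The 31029 genes listed for both lines were tested with edgeR 4.0.16 (R 4.3.3): filterByExpr, TMM factors, quasi-likelihood test, Benjamini-Hochberg adjustment over the 17975 genes kept, calls at 0.05. The SE is the log2 fold change divided by the square root of F. The fit was tested on simulated data for this comparison, drawn with 1 common dispersion. Of 195 genes changed 2-fold it called 7.18%, with 0 false calls among 17735 genes tested. Of 195 genes changed 4-fold it called 90.8%, with 8 false calls among 17705. In the real libraries 48.2% of the genes tested were called, so that the adjustment was less strict there than with so few changed genes. How many 2-fold differences were missed in the real libraries cannot be read from this simulation. LIG1, RFC1, ORC4 and RPA1, with log2 fold changes of 1.00 to 1.05, were all called. DESeq2 1.42.0 and other settings served as alternatives. Gene names and exon lengths are those of GENCODE 29 (GRCh38), whose coordinates were not joined to the hg19 counts. Promoter windows came from RefSeq on GRCh38.p14, oriented 5′ to 3′. Values for shControl cells in the study's supplement were not used here. The members and lists were chosen with earlier results of these data known. All 49 members were to be described by role, with full values for the largest and smallest difference in each role and for each gene called at 2-fold or more, and of the further genes the 8 largest.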

Additional observations from a re-analysis of the deposited data

How the results depend on the processing

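The direction of all 49 replication genes was kept under 12 alternatives, with 0 reversals in 588 values. Leaving out each library in turn gave 45 to 47 genes called higher in 501Mel cells and 0 higher in Hermes 3A cells, with medians of 1.93 to 2.21 (log2). The other alternatives (other scaling factors, no filter on low counts, DESeq2, the replicate block, a 2-fold limit, and genes missing from the files of 1 line set to 0, which was chosen after seeing the data) gave 44 to 47 genes, 0 higher in Hermes 3A cells, and medians of 2.00 to 2.15. The calls that changed were those of ORC5, gained with library totals alone (log2 fold change 0.50, adjusted p = 0.0376) and without Hermes 3A replicate 1, and of TYMS, lost without 501Mel replicate 1 (log2 fold change 0.65) or Hermes 3A replicate 2, and the cause was not tested. Among all genes tested, 4354 were called higher in 501Mel cells, and 2864 to 4595 when a library was left out, the lowest without 501Mel replicate 1. Further replication genes called higher in 501Mel cells numbered 29 to 37.

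Both lines carry replicate numbers 1 and 2, but nothing ties a number to a shared culture. Deviations from the line means correlated at 0.106 for replicate 1 and 0.122 for replicate 2. With 2 libraries of 501Mel these deviations mirror each other, so that each value has a forced opposite in the other 501Mel library. For Hermes 3A replicate 3 the correlations were -0.0275 with 501Mel replicate 1 and 0.0275 with replicate 2. These values cannot settle whether the numbers are paired. With the replicate block, 46 replication genes were called higher in 501Mel cells and 0 higher in Hermes 3A cells, and no call of the 49 changed, while 3627 and 3834 of all genes were called. With 2 libraries of 501Mel cells the precision is limited, and leaving out 1 of them assumes that the other varies like the Hermes 3A libraries. Levels per kb depend on the annotated length. The fold between the highest and the lowest member became 44.2 for 501Mel and 248 for Hermes 3A with the median transcript length. Leaving out each library in turn, which was added after seeing the data, gave 35.3 to 47.4 for 501Mel and 357 to 895 for Hermes 3A, the last without replicate 1.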

Other observations

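The 4 further genes called higher in Hermes 3A cells, TK2, RRM2B, POLD4 and POLE4, and the paralogs and partners set beside them, were chosen after their values were seen. TK2, the mitochondrial thymidine kinase, had 22.8 and 31.2 CPM in 501Mel cells and 43.0, 64.3 and 64.7 CPM in Hermes 3A cells (log2 fold change -1.14, SE 0.23, edgeR adjusted p = 0.00604), whereas cytosolic TK1 was higher in 501Mel cells. RRM2B, the p53-inducible counterpart of RRM2, had 20.1 and 15.5 CPM against 29.6, 31.9 and 35.8 CPM (log2 fold change -0.93, SE 0.19, edgeR adjusted p = 0.00644). RRM2 was higher in 501Mel cells, and the libraries of the lines did not overlap for either gene. Both 501Mel libraries lay above all Hermes 3A libraries, as for RRM2, in 37.9% of all genes tested. The share in the direction of RRM2B was not counted. ASF1A, the paralog of ASF1B, had 33.6 and 37.6 CPM against 30.5, 41.3 and 45.4 CPM and was not called (log2 fold change -0.19, SE 0.19, edgeR adjusted p = 0.442). TOP2B, in contrast, was higher in 501Mel cells like TOP2A, but by less (log2 fold change 1.19 against 4.50). Whether the paralogs of a pair differ from each other in how far the lines were apart was not tested.

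POLD4, the smallest subunit of polymerase delta, had 5.41 and 4.09 CPM in 501Mel cells and 15.0, 19.1 and 21.8 CPM in Hermes 3A cells (log2 fold change -2.03, SE 0.26, edgeR adjusted p = 0.00099). POLE4 of polymerase epsilon had 9.55 and 7.69 CPM against 22.2, 15.4 and 15.4 CPM (log2 fold change -1.11, SE 0.28, edgeR adjusted p = 0.0145). Its binding partner POLE3, also a small accessory subunit, was higher in 501Mel cells, with 133 and 113 CPM against 37.4, 36.9 and 34.1 CPM (log2 fold change 1.70, SE 0.14, edgeR adjusted p = 0.000153).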
